A study of Mus musculus with 60 samples.

Results

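The genes described here are 41 genes that mark meningeal fibroblasts or encode extracellular matrix, taken by symbol from a list that was drawn up with earlier results of these data known. The rule itself uses no measured value. All 41 were found among the 18088 genes of the table by their GENCODE symbols, and all 41 passed the filter on low values. They fall into 7 roles: 8 fibrillar and type VI collagen chains, 13 basement membrane genes, 7 matrix glycoproteins, 5 small leucine-rich proteoglycans, 3 forkhead transcription factors, 3 meningeal transporters, and Igf2 with its binding protein Igfbp2.

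RNA was sequenced from the prefrontal cortex of C57BL/6J mice on postnatal day 25. The mice were heterozygous for the C456Y allele of the NMDA receptor subunit gene Grin2b (Grin2b+/C456Y, called Het) or wild type (WT). Pups of both genotypes and sexes received fluoxetine, a selective serotonin reuptake inhibitor, or lithium, a mood stabiliser, or vehicle through their mothers' milk on days 3 to 24. The 6 groups were therefore Het fluoxetine, Het lithium, Het vehicle, WT fluoxetine, WT lithium and WT vehicle, each with 5 male and 5 female libraries, 60 in all. The allele is present in the whole animal and not in chosen cells. The labels number the libraries but do not say whether each came from a separate animal or litter, so the p-values measure the spread between these libraries.

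The meninges are the membranes around the brain, and their fibroblasts secrete collagens, fibronectin and proteoglycans, carry transporters of the SLC6 and SLC13 families and depend on Foxc1 for their development. The basement membrane is a sheet of type IV collagen, laminins, nidogens and perlecan that lies under the meninges and also wraps every brain vessel, where endothelial cells and pericytes make much of it. A cortical dissection holds neurons, glia and vessels throughout, and meninges only at its surface. The labels do not say whether the meninges were removed.

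Sequences before a RefSeq start site are shown for 4 of the genes, chosen for their expression results. Col1a2 and Col3a1 were lower in WT mice given lithium, and Ogn was higher in Het mice given fluoxetine. Slc6a13 is the meningeal transporter against which the others were compared from library to library. Each is the longest stretch free of GENCODE exons within the 250 bases before a RefSeq start site (build GRCm38.p6, plus strand), at chr6:4505370-4505492 for Col1a2, chr1:45311288-45311537 for Col3a1, chr13:49607765-49608014 for Ogn and chr6:121300038-121300226 for Slc6a13, for which 1 of 3 start sites is shown. Capitals mark the GC box GGGCGG, the CCAAT box or the TATA box TATAAA, read on both strands. In Ogn the TATA letters were found on both strands, and the 2 matches overlap. The stretches of Col1a2 (123 bases) and Slc6a13 (189 bases) end before the RefSeq start site, so the bases next to it are not shown. That of Col1a2 lies between exons inside the GENCODE gene, which begins at chr6:4504814.
Col1a2: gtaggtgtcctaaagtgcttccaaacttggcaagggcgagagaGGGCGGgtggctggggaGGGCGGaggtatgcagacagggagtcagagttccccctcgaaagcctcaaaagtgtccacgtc
Col3a1: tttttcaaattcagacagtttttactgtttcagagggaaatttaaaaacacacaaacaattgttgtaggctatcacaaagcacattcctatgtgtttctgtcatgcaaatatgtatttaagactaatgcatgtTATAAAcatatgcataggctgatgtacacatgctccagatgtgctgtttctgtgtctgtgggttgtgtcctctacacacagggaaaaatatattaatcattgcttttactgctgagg
Ogn: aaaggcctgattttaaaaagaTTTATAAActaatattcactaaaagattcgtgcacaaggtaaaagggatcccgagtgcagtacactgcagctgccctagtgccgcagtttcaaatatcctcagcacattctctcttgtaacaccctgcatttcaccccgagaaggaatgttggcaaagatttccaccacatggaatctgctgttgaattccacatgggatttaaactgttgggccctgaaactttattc
Slc6a13: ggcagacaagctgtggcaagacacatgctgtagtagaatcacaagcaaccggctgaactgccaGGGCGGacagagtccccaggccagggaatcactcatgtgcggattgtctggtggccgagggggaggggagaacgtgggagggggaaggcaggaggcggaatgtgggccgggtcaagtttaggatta
Of the 41 genes, 31 had a RefSeq window, with 41 windows between them because some genes have several starts. GGGCGG or its reverse complement CCGCCC was in 23 of these 41 windows (56.1%) and in 32.7% of all 32851 windows of the same length. CCAAT or ATTGG was in 13 (31.7%, against 33.9% of all windows), and TATAAA or TTTATA was in 2 (4.88%, against 12.4%). These matches describe letters only.

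The levels of the 41 genes covered a wide range. Levels are given as normalised read counts, which are reads divided by 1 size factor per library, and between genes only per kilobase of the longest transcript. Sparc, a secreted collagen-binding glycoprotein, had the highest mean level at 3472 per kilobase, and Foxd1, a forkhead factor of mesenchymal precursors, the lowest at 8.7. Igfbp2 (891.8), Col6a1 (886), Igf2 (584), Col4a2 (521), Col4a1 (459) and Fn1 (458), the gene of fibronectin, followed Sparc. Fbn1, Foxc2, Thbs1 and Col6a3 stood near the low end, at 15.6 to 23.6 per kilobase. Col4a1 and Col4a2 lie head to head on chromosome 8 and overlap by 22 bases, and Col3a1 and Col5a2, Dcn and Lum, and Col6a2 and Col6a1 are neighbours 24.6, 47.0 and 85.2 kilobases apart.

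The 41 genes varied more between libraries of the same group than most genes did. Their median residual standard deviation was 0.24 on the log2 scale, against 0.16 for all 17810 genes tested, and 35 of the 41 lay above that all-gene median. The highest library had 6.48 times the normalised count of the lowest for Col3a1, 5.39 times for Ogn and 4.28 times for Col1a1, but only 1.54 times for Lama2 and 1.58 times for Lamb1, laminin chains of the basement membrane. Col6a2 had the smallest residual standard deviation (0.11) and Foxc2, a forkhead factor of mesenchyme and vessels, the largest (0.39).

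Read totals ran from 23901635 to 37769417 per library. The sum of 10 cortical neuron markers was 194124 to 270946 normalised counts over all libraries. That of 10 olfactory bulb and striatum markers varied more, from 3417 to 22575. The defining choroid plexus gene Ttr reached 2244 in 1 library with a mean of 103 over all 60. Residuals were largest in WT lithium male 5, WT lithium female 5 and Het vehicle male 5, and each count of called genes was also made without these 3 libraries. In 10 libraries, all Het fluoxetine libraries but male 1 together with WT vehicle female 2, a set of 16 pseudogenes was low. These pseudogenes were chosen because they were called and over 4-fold different between Het and WT mice under fluoxetine. Their low level in Het fluoxetine libraries therefore follows from the choice and is no separate finding. Libraries also differed in the correlation, across genes, of their deviation with transcript GC content. It was -0.315 to -0.105 in Het fluoxetine, -0.22 to 0.335 in Het lithium and -0.135 to 0.208 in Het vehicle libraries, and -0.037 to 0.238 in WT fluoxetine, -0.487 to 0.226 in WT lithium and -0.356 to 0.207 in WT vehicle libraries. Het fluoxetine libraries were all negative and did not overlap WT fluoxetine libraries, but they overlapped the other 4 groups.

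The joint level of the 41 genes, the mean of their log2 deviations from each gene's mean over 60 libraries, separated WT lithium from WT vehicle libraries for the most part. Its lowest, median and highest values were -0.63, -0.14 and 0.18 in WT lithium libraries, against -0.22, 0.22 and 0.31 in WT vehicle libraries. The other 4 groups lay between these medians: 0.01 in Het fluoxetine, -0.07 in Het lithium and 0.03 in Het vehicle libraries, and 0.02 in WT fluoxetine libraries. WT lithium female 5 stood lowest of all 60, with 36 of the 41 genes below their mean. The groups overlapped, since WT lithium male 2 (0.18) and female 2 (0.02) were higher than WT vehicle male 1 (-0.22) and female 2 (-0.09).

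Among 13 of the 41 genes followed across all groups, the 3 fibrillar chains set the pattern. The median normalised count of Col1a1 was 508 in Het fluoxetine, 593 in Het lithium and 623 in Het vehicle libraries, and 700.2 in WT fluoxetine, 499.9 in WT lithium and 762 in WT vehicle libraries. That of Col1a2 was 1132 in Het fluoxetine, 1013 in Het lithium and 1093 in Het vehicle libraries, and 1166 in WT fluoxetine, 858 in WT lithium and 1358 in WT vehicle libraries. That of Col3a1 was 419 in Het fluoxetine, 391 in Het lithium and 395 in Het vehicle libraries, and 391 in WT fluoxetine, 348 in WT lithium and 525 in WT vehicle libraries. All 3 were highest in WT vehicle and lowest in WT lithium libraries. For Igf2 the medians were 2834 in Het fluoxetine, 2540.4 in Het lithium and 2992 in Het vehicle libraries, and 2687 in WT fluoxetine, 2289.9 in WT lithium and 3317 in WT vehicle libraries. For Igfbp2 they were 1095 in Het fluoxetine, 1126 in Het lithium and 1154 in Het vehicle libraries, and 1189 in WT fluoxetine, 1046 in WT lithium and 1436 in WT vehicle libraries. For Slc6a13 they were 289 in Het fluoxetine, 259 in Het lithium and 286 in Het vehicle libraries, and 286 in WT fluoxetine, 244 in WT lithium and 336 in WT vehicle libraries. These 3 had the same highest and lowest groups as the collagens.

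The remaining 7 of the 13 followed that order less closely. Fn1 had medians of 3985 in Het fluoxetine, 3655 in Het lithium and 3737 in Het vehicle libraries, and 3929 in WT fluoxetine, 3398 in WT lithium and 4133 in WT vehicle libraries, again highest in WT vehicle and lowest in WT lithium libraries. Dcn had medians of 469.6 in Het fluoxetine, 359 in Het lithium and 365 in Het vehicle libraries, and 402 in WT fluoxetine, 340.5 in WT lithium and 462 in WT vehicle libraries. Foxc1 had medians of 164 in Het fluoxetine, 152 in Het lithium and 161 in Het vehicle libraries, and 162 in WT fluoxetine, 136 in WT lithium and 156 in WT vehicle libraries. Lama2, a laminin alpha chain, had medians of 484 in Het fluoxetine, 419 in Het lithium and 449.6 in Het vehicle libraries, and 437 in WT fluoxetine, 389.7 in WT lithium and 457 in WT vehicle libraries. Dcn, Foxc1 and Lama2 were lowest in WT lithium and highest in Het fluoxetine libraries. Slc6a20a had medians of 539 in Het fluoxetine, 481 in Het lithium and 526 in Het vehicle libraries, and 558 in WT fluoxetine, 535 in WT lithium and 577 in WT vehicle libraries, lowest in Het lithium libraries. Col4a1 had medians of 3035 in Het fluoxetine, 3140.2 in Het lithium and 3164 in Het vehicle libraries, and 2757 in WT fluoxetine, 2829 in WT lithium and 3280.1 in WT vehicle libraries, lowest in WT fluoxetine libraries. Sparc had medians of 7134 in Het fluoxetine, 7536 in Het lithium and 7683 in Het vehicle libraries, and 7899.8 in WT fluoxetine, 8099.8 in WT lithium and 8945 in WT vehicle libraries, lowest in Het fluoxetine libraries. WT vehicle libraries were thus highest in 10 and WT lithium libraries lowest in 10 of the 13 genes, and neighbouring medians mostly lay within the ranges of each other's libraries.

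**Figure D1:**
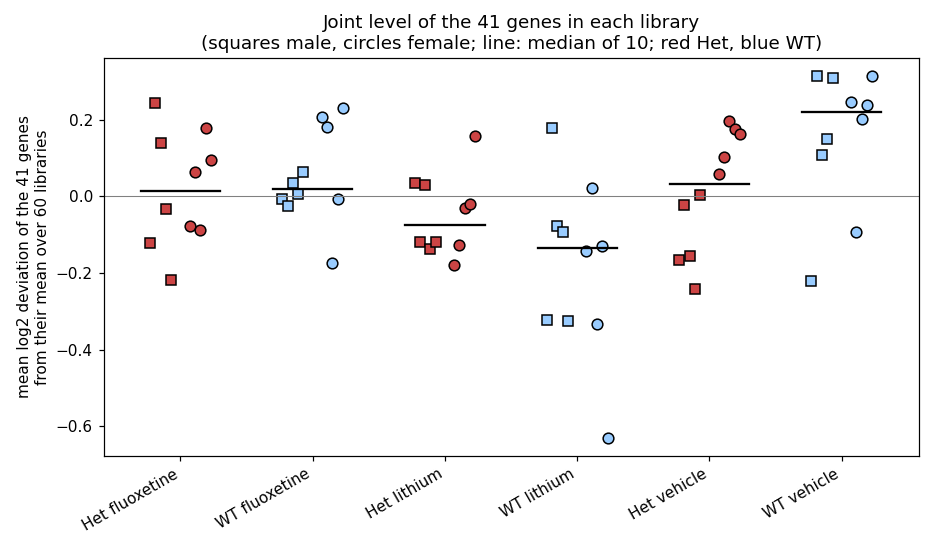
Each point is 1 library, placed by the mean log2 deviation of the 41 genes from their means over 60 libraries; squares are male, circles female, and the line is the median of 10 libraries. WT vehicle libraries have the highest median (0.22) and WT lithium libraries the lowest (-0.14), with WT lithium female 5 at -0.63.

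Lithium against vehicle in WT mice was the comparison in which most of the 41 genes changed. Of the 41, 30 fell and none rose, at an adjusted p below 0.05 (limma on log2(value + 1), Benjamini-Hochberg over all genes), while 9.87% of all genes tested were called lower, 9.34% higher and 19.2% in either direction. The median log2 fold was -0.38 over the 41 genes and 0.0039 over all genes. In bulk RNA, fewer cells of a type and less RNA per cell cannot be told apart. Littermates would share a drug that came through the milk, and what litters share was not tested.

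**Figure D2:**
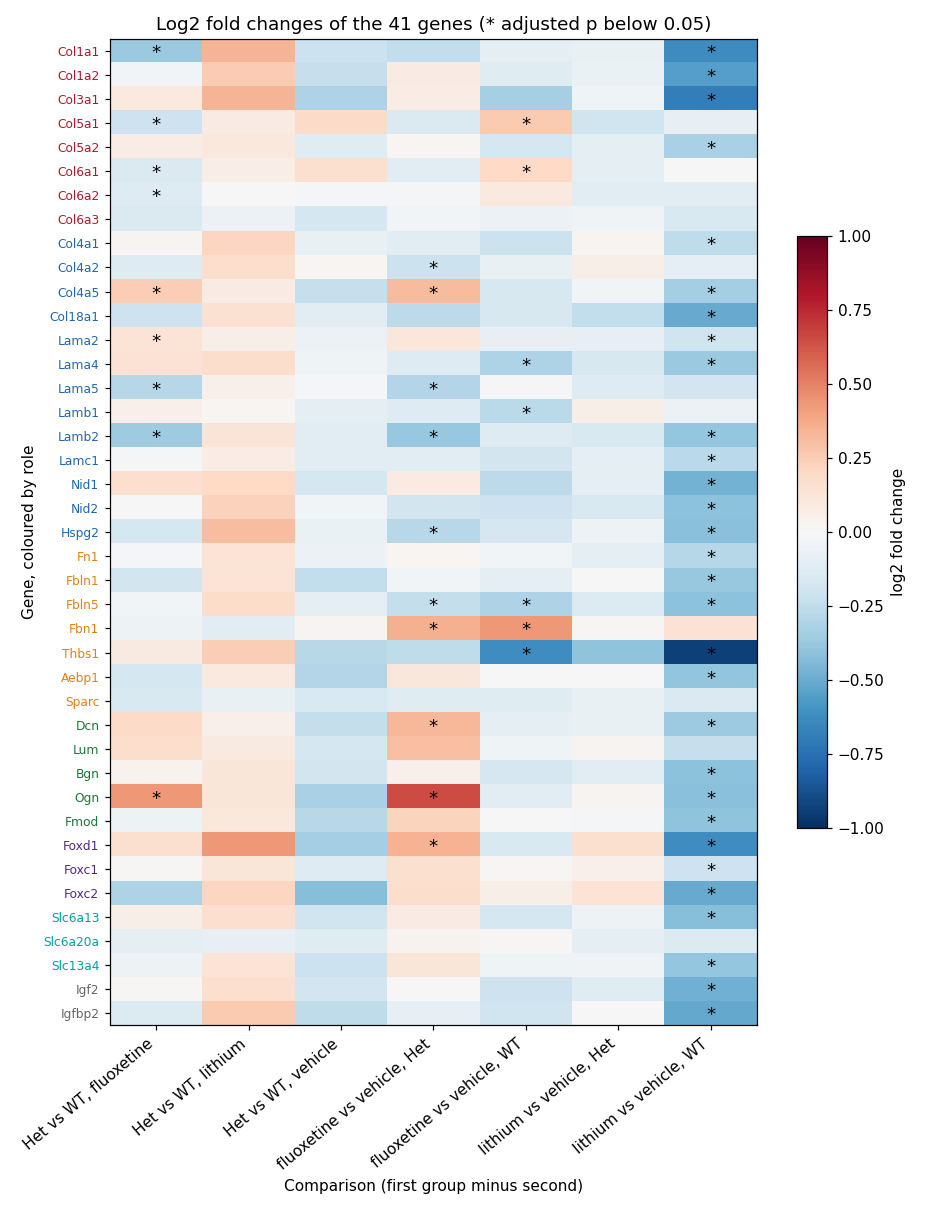
Log2 fold changes of the 41 genes (rows, coloured by role) in the 7 comparisons averaged over sex (columns), with a star where the adjusted p is below 0.05. The column for lithium against vehicle in WT mice holds 30 stars, all on lower values, and the lithium column in Het mice holds none.

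The fibrillar collagens, which form the tensile fibres of connective tissue, fell where they are the chains of types I and III. Col1a2 had 561, 858 and 1298 normalised counts (lowest, median and highest) in WT lithium libraries, against 741, 1358 and 1474 in WT vehicle libraries. Col3a1 had 91.1, 348 and 513 in WT lithium libraries, against 289.9, 525 and 590.1 in WT vehicle libraries. Col1a1 had 225, 499.9 and 729 in WT lithium libraries, against 441, 762 and 893 in WT vehicle libraries. In all 3 genes WT vehicle male 1 was the lowest of its group and lay within the range of the WT lithium libraries, so the groups overlapped. The log2 folds were -0.55 (SE 0.11, adjusted p = 0.00038) for Col1a2, with 9 of 10 WT lithium libraries below the WT vehicle mean of their sex, -0.69 (SE 0.15, adjusted p = 0.000994) for Col3a1 (9 of 10) and -0.63 (SE 0.15, adjusted p = 0.00271) for Col1a1 (8 of 10). Without the 3 libraries with the largest residuals the fold of Col3a1 was -0.49 (adjusted p = 0.00453) and that of Col1a1 -0.44 (adjusted p = 0.0298). In a fit to the groups compared alone both missed the threshold (adjusted p = 0.0570 for Col3a1 and 0.0566 for Col1a1). Col5a2, a chain of type V collagen, also fell (-0.32), which makes 4 of 8 in this role. Col5a1 (-0.08), Col6a1 (-0.01), Col6a2 (-0.10) and Col6a3 (-0.15) did not pass the test.

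Of the basement membrane genes 10 of 13 fell. Lama4, a laminin chain of vessel walls, had 234, 368 and 494 in WT lithium libraries, against 418, 476 and 524 in WT vehicle libraries. Col18a1, whose collagen is cleaved to endostatin, had 128, 213 and 269 in WT lithium libraries, against 195, 293 and 377 in WT vehicle libraries. Their log2 folds were -0.37 (SE 0.07, adjusted p = 0.000267) with 9 of 10 WT lithium libraries below the WT vehicle mean of their sex, and -0.51 (SE 0.11, adjusted p = 0.00077) with 10 of 10. The other called members of this role ran from -0.20 (Lama2) to -0.47 (Nid1, a nidogen that links laminin to type IV collagen), and included the perlecan gene Hspg2 at -0.42 and Lamb2 at -0.39. Only 1 of the type IV collagen pair passed, and the difference between them was not tested: Col4a1 was at -0.26 (adjusted p = 0.0292), and its head-to-head neighbour Col4a2 was at -0.10 (adjusted p = 0.393). Lama5 and Lamb1 did not pass the test either.

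Among the matrix glycoproteins 5 of 7 fell, and Thbs1 fell most of all 41 genes. Thbs1 encodes thrombospondin 1, a secreted protein that binds matrix and inhibits vessel growth. It had 57.4, 80.4 and 108 normalised counts in WT lithium libraries, against 118, 156 and 204 in WT vehicle libraries. The groups did not overlap in this gene, and how often that held over all genes was not counted. The log2 fold was -0.93 (SE 0.13, adjusted p = 5.54e-06). Fbln5, an elastic fibre protein, had 153, 228 and 251 in WT lithium libraries, against 235, 289.5 and 355 in WT vehicle libraries, and its fold on the log2 scale was -0.41 (SE 0.09, adjusted p = 0.000898), with all 10 WT lithium libraries below the WT vehicle mean of their sex. Fn1 was at -0.29 (adjusted p = 0.0257), and passed in 13 of 20 fits that each left out 1 of the 20 libraries compared. Fbln1 (-0.38) and Aebp1 (-0.39) also fell, while Sparc (-0.15) and the microfibril gene Fbn1 (0.14) did not pass.

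The small leucine-rich proteoglycans, which bind collagen fibrils and set their thickness, fell in 4 of 5 cases, with log2 folds of -0.40 for Fmod, -0.41 for Bgn, -0.42 for Ogn and -0.37 for Dcn. Dcn, the gene of decorin, had 144, 340.5 and 491 in WT lithium libraries, against 228, 462 and 504 in WT vehicle libraries, and 6 of 10 WT lithium libraries lay below the WT vehicle mean of their sex. Ogn had 81.6, 228 and 404 in WT lithium libraries, against 156, 291 and 335 in WT vehicle libraries. The ranges of both genes in WT lithium libraries reached above the WT vehicle medians. The Ogn call (adjusted p = 0.0438) held in 7 of 20 fits without 1 library and was lost with the term for the low-pseudogene libraries (adjusted p = 0.0555), whereas the Dcn call was kept in 15 of 20. Lum was at -0.23 and did not pass.

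All 3 forkhead transcription factors fell. Foxd1 had 22.8, 30 and 57.1 normalised counts in WT lithium libraries, against 38.9, 49.5 and 62.7 in WT vehicle libraries, and its log2 fold was -0.62 (SE 0.14, adjusted p = 0.00126), in the direction of 9 of 10 libraries. Foxc1 had 119.9, 136 and 177 in WT lithium libraries, against 148, 156 and 188 in WT vehicle libraries. Its log2 fold of -0.20 (SE 0.07, adjusted p = 0.0428) passed in 7 of 20 fits without 1 library, and after correction for GC content it was -0.15 (adjusted p = 0.226). Foxc2 was at -0.50 (adjusted p = 0.0279), and Foxc2 (adjusted p = 0.0809), Col4a1 (0.126) and Aebp1 (0.0558) also missed the threshold after the GC correction.

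Of the meningeal transporters, Slc6a13, which carries GABA and taurine, and Slc13a4, a sulfate carrier, fell. Slc6a13 had 151, 244 and 328 in WT lithium libraries, against 201, 336 and 473 in WT vehicle libraries, a log2 fold of -0.42 (SE 0.12, adjusted p = 0.0106). Slc6a20a, a proline carrier, had 425, 535 and 616 in WT lithium libraries, against 384, 577 and 701 in WT vehicle libraries, and its fold of -0.14 (SE 0.08, adjusted p = 0.202) did not pass. Both genes overlapped widely between the groups. Igf2, a secreted growth factor, had 1589.7, 2289.9 and 3317 in WT lithium libraries, against 2407, 3317 and 3931 in WT vehicle libraries. Igfbp2, which binds it, had 589, 1046 and 1282 in WT lithium libraries, against 1094, 1436 and 1531 in WT vehicle libraries. The log2 folds were -0.48 (SE 0.10, adjusted p = 0.000869) for Igf2 and -0.51 (SE 0.09, adjusted p = 9.46e-05) for Igfbp2, with 9 and 10 of 10 WT lithium libraries below the WT vehicle mean of their sex.

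**Figure D3:**
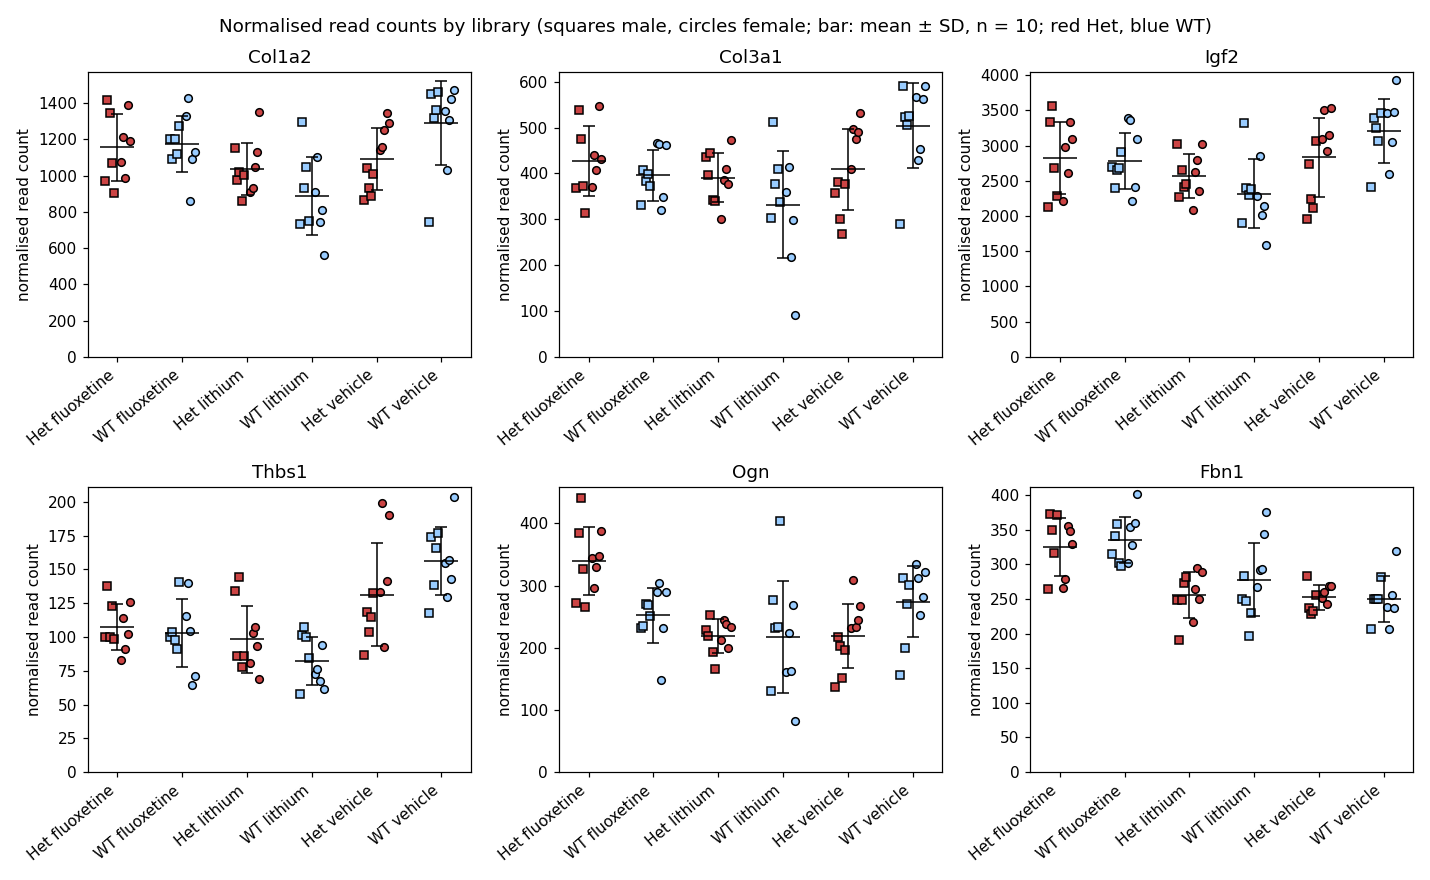
Normalised read counts of 6 of the 41 genes in all 60 libraries by group (red Het, blue WT; squares male, circles female; bars are mean ± SD of 10 libraries). Thbs1 is 57.4 to 107.5 in WT lithium libraries and 118 to 204 in WT vehicle libraries with no overlap, Ogn is highest in Het fluoxetine libraries, and Fbn1 is high in both fluoxetine groups.

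The count of 30 was 29 by edgeR's quasi-likelihood test on the recovered reads and 26 after the GC correction. It was 19 without the 3 libraries with the largest residuals, which include WT lithium male 5 and female 5, and 13 in a fit to WT lithium and WT vehicle libraries alone. The genes called in these 4 settings were all among the 30. Leaving out 1 library at a time gave 22 to 30.

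Markers of other cells moved in the same comparison. Of 16 endothelial markers 12 fell and none rose, with a summed level of 12181 to 15197 (median 13567) in WT lithium libraries and 13828 to 18294 (median 16346) in WT vehicle libraries; the tight junction gene Cldn5 was at -0.64 (SE 0.09, adjusted p = 4.44e-06) and the cadherin gene Cdh5 at -0.46 (SE 0.08, adjusted p = 4.23e-05). Of 14 markers of pericytes and smooth muscle 10 fell, with sums of 6140 to 10808 (median 9034) in WT lithium libraries and 9764 to 12001 (median 10905) in WT vehicle libraries. Of 8 microglial markers 7 fell, and of 10 astrocyte markers 5 fell. Of 10 cortical neuron markers none fell and 1 rose, and none of 10 oligodendrocyte, 7 choroid plexus or 6 blood markers passed. The choroid plexus sum was 122 to 2493 (median 268) in WT lithium libraries and 119 to 379.6 (median 177) in WT vehicle libraries, and the sum of 10 olfactory bulb and striatum markers was 4710 to 22575 (median 6146) in WT lithium libraries and 3916 to 13990 (median 6124) in WT vehicle libraries. The part of any of these cells in the result was not tested.

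Lists of genes that work with the 41 gave smaller shares of calls in this comparison. Of 19 further meningeal markers 9 fell, among them the gap junction gene Gjb2 (-0.38 (SE 0.09, adjusted p = 0.00337)), and 1 rose, the hyaluronan-degrading Cemip (0.21 (SE 0.05, adjusted p = 0.00211)). Of 27 collagen processing enzymes 9 fell and none rose, including the collagen chaperone gene Serpinh1 (-0.53 (SE 0.10, adjusted p = 0.000173)) and the prolyl hydroxylase gene P4ha1 (-0.35 (SE 0.07, adjusted p = 0.000383)). Of 28 other collagen chains 6 fell, of 20 matrix proteases and their inhibitors 5 fell and 1 rose, and of 25 matrix receptors 6 fell and 2 rose. Of 13 further genes of the IGF axis 3 fell and 4 rose, among them the receptor genes Igf1r (0.20 (SE 0.04, adjusted p = 0.000337)) and Igf2r (0.23 (SE 0.05, adjusted p = 0.00119)), both higher in WT lithium libraries while Igf2 was lower.

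In Het mice lithium changed none of the 41 genes at the threshold. None of the 41 passed in limma or in edgeR, while 0.983% of all genes tested were called in limma, and 5 of the 41 had an unadjusted p below 0.05, all lower. The median log2 fold of the 41 was -0.07. Thbs1 had 69.0, 89.6 and 145 in Het lithium libraries, against 86.9, 126 and 199 in Het vehicle libraries, and its log2 fold of -0.40 (SE 0.13, adjusted p = 0.129) was the one with the smallest p. Col5a1 (-0.20 (SE 0.07, adjusted p = 0.139)) and Col18a1 (-0.25 (SE 0.11, adjusted p = 0.279)) came next. Col1a2 had 859.7, 1013 and 1350.1 in Het lithium libraries, against 866, 1093 and 1346 in Het vehicle libraries, and its groups overlapped almost fully.

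Whether the response to lithium differed between the genotypes was tested directly. None of the 41 genes passed for the response in Het minus that in WT mice, in limma or edgeR, and 0.0674% of all genes did in limma. At an unadjusted p below 0.05 there were 21 of the 41, all with a positive difference, against 11.1% of all genes. Igfbp2 (0.51 (SE 0.13, adjusted p = 0.0939)) and Foxd1 (0.77 (SE 0.20, adjusted p = 0.0939)) had the smallest p. So the 30 calls in WT mice and none in Het mice do not show that the genotypes respond differently. Leaving out WT lithium female 1 or male 2 gave 1 called gene, and leaving out WT lithium female 2 or WT vehicle female 2 gave 2.

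Between the genotypes, lithium-treated mice gave no called gene among the 41 in limma or edgeR, with 0.0281% of all genes called in limma, and 10 of the 41 had an unadjusted p below 0.05, all higher in Het mice. Foxd1 had 30.3, 46.2 and 64.7 in Het lithium libraries, against 22.8, 30 and 57.1 in WT lithium libraries, a log2 fold of 0.44 (SE 0.14, adjusted p = 0.208). Igfbp2 (0.26 (SE 0.09, adjusted p = 0.268)) and Hspg2 (0.31 (SE 0.11, adjusted p = 0.283)) followed, each with 10 of 10 Het lithium libraries above the WT lithium mean of their sex. All 3 overlapped between the genotypes.

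In vehicle, too, none of the 41 genes passed between Het and WT mice in limma or edgeR, and 0.59% of all genes were called in limma. At an unadjusted p below 0.05 there were 14 genes lower and 2 higher in Het mice, and the median log2 fold of the 41 was -0.15. Col5a1 had 874, 926 and 1141 in Het vehicle libraries, against 677, 870.5 and 956 in WT vehicle libraries, a log2 fold of 0.19 (SE 0.07, adjusted p = 0.234). Igfbp2 had 898, 1154 and 1509.8 in Het vehicle libraries, against 1094, 1436 and 1531 in WT vehicle libraries, a log2 fold of -0.26 (SE 0.09, adjusted p = 0.25). Col6a1, at 0.16 (SE 0.06, adjusted p = 0.262), was the other of the 2 higher genes. In all, 4 of the 41 had a positive fold. This comparison shares its WT vehicle libraries with the lithium comparison in WT mice, and those libraries had the highest joint level of the 6 groups.

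Fluoxetine against vehicle in WT mice changed 7 of the 41 genes, 3 higher and 4 lower, with 8.43% of all genes called (4.35% higher, 4.08% lower). The WT vehicle libraries, which had the highest joint level of the 6 groups, also serve the lithium comparison in WT mice. Falls called in both comparisons are therefore not independent. Fbn1, the gene of the microfibril protein fibrillin 1, had 298, 334 and 401 in WT fluoxetine libraries, against 206, 249.9 and 319.5 in WT vehicle libraries. Thbs1 had 64.8, 102 and 140.4 in WT fluoxetine libraries, against 118, 156 and 204 in WT vehicle libraries. Fbn1 was higher in all 10 WT fluoxetine libraries than the WT vehicle mean of their sex and Thbs1 was lower in all 10, though both overlapped between the groups. The log2 folds were 0.43 (SE 0.08, adjusted p = 0.000138) for Fbn1 and -0.62 (SE 0.13, adjusted p = 0.00146) for Thbs1. Col5a1 (0.26 (SE 0.07, adjusted p = 0.00894)) and Col6a1 (0.20 (SE 0.06, adjusted p = 0.0256)) rose as well, each in 10 of 10 libraries. Lamb1 (-0.27 (SE 0.06, adjusted p = 0.00192)), Lama4 (-0.31 (SE 0.07, adjusted p = 0.00343)) and Fbln5 (-0.31 (SE 0.09, adjusted p = 0.0203)) fell. Lamb1 had 480.5, 521 and 614 in WT fluoxetine libraries, against 560.5, 661 and 729 in WT vehicle libraries. The types I and III collagens did not pass, with Col3a1 at -0.33 (SE 0.15, adjusted p = 0.175). Of the 16 endothelial markers 6 fell in the same comparison, including Tek at -0.34 and Cldn5 at -0.43, with sums of 12930 to 20095 (median 14122) in WT fluoxetine libraries and 13828 to 18294 (median 16346) in WT vehicle libraries, and their part in the result was not tested. All 7 calls held with the GC correction and with the term for the low-pseudogene libraries.

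In Het mice fluoxetine changed 10 of the 41 genes, 5 higher and 5 lower, where 39% of all genes tested were called (19.1% higher, 19.9% lower). Ogn, a small leucine-rich proteoglycan of connective tissue, had 265, 337 and 440.3 in Het fluoxetine libraries, against 137, 224 and 309 in Het vehicle libraries. Fbn1 had 264, 338 and 372 in Het fluoxetine libraries, against 228, 253 and 283 in Het vehicle libraries. In both genes all 10 Het fluoxetine libraries lay above the Het vehicle mean of their sex, and the ranges overlapped. The log2 folds were 0.65 (SE 0.15, adjusted p = 0.000693) for Ogn and 0.35 (SE 0.08, adjusted p = 0.00031) for Fbn1. Col4a5 (0.31 (SE 0.09, adjusted p = 0.00344)), Dcn (0.33 (SE 0.12, adjusted p = 0.0244)) and Foxd1 (0.35 (SE 0.14, adjusted p = 0.0413)) also rose. Lamb2, the laminin beta 2 chain, had 648, 819 and 1035 in Het fluoxetine libraries, against 916, 1097 and 1344 in Het vehicle libraries, a log2 fold of -0.38 (SE 0.10, adjusted p = 0.00171). Lama5 (-0.29), Hspg2 (-0.28), Fbln5 (-0.24) and Col4a2 (-0.22) fell too. Of these 5 lower genes all but Fbln5 are basement membrane genes with a transcript GC content of 58.8% to 60.87%, and after correction for GC content the folds of these 4 were -0.19 for Lamb2, -0.08 for Lama5, -0.06 for Hspg2 and -0.0017 for Col4a2, none of them called. The share called, 10 of 41, lay below that of all genes.

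Between the genotypes under fluoxetine 9 of the 41 genes were called, 3 higher and 6 lower in Het mice, against 39.5% of all genes (19.6% higher, 19.9% lower). Ogn had 265, 337 and 440.3 in Het fluoxetine libraries, against 148, 259.8 and 305 in WT fluoxetine libraries, which is a difference of 0.44 (SE 0.15, adjusted p = 0.019) on the log2 scale, 10 of 10 Het libraries lying above the WT mean of their sex. Lamb2 had 648, 819 and 1035 in Het fluoxetine libraries, against 952, 1043 and 1206 in WT fluoxetine libraries, which is a difference of -0.35 (SE 0.10, adjusted p = 0.00303) on the log2 scale, 9 of 10 lying below. Both ranges overlapped. Col4a5 (0.25 (SE 0.09, adjusted p = 0.0207)) and Lama2 (0.14 (SE 0.06, adjusted p = 0.0477)) were the other genes that rose. Col5a1 (-0.21 (SE 0.07, adjusted p = 0.0123)), Lama5 (-0.29 (SE 0.10, adjusted p = 0.0224)), Col1a1 (-0.37 (SE 0.15, adjusted p = 0.0452)), Col6a1 (-0.14 (SE 0.06, adjusted p = 0.0456)) and Col6a2 (-0.13 (SE 0.05, adjusted p = 0.039)) fell.

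The calls in Het fluoxetine libraries moved with GC content and with the low-pseudogene libraries. The 21 genes with the higher transcript GC content (54.4% to 62.13%) had a median fold of -0.14 between the genotypes under fluoxetine as deposited and 0.07 after the GC correction. The 20 with the lower GC content (36.32% to 53.72%) had 0.06 as deposited and 0.10 after it. Ogn, the lowest in GC content at 36.32%, was at 0.18 (adjusted p = 0.437) between the genotypes after the correction, and Lamb2, at 58.8%, was at -0.12 (adjusted p = 0.301). After the correction 2 genes were called, both higher in Het mice: Col4a5 (0.31 (adjusted p = 0.0118)), which was among the 9, and Col4a1 (0.24 (adjusted p = 0.0486)), which was not. Against vehicle in Het mice, Fbn1 (0.40 (adjusted p = 9.50e-05)), Ogn (0.42 (adjusted p = 0.0226)), Col4a5 (0.35 (adjusted p = 0.0024)), Foxd1 (0.45 (adjusted p = 0.0119)) and Fbln5 (-0.29 (adjusted p = 0.0101)) stayed called after the GC correction, the other 5 did not, and Foxc1 (0.29 (adjusted p = 0.00836)) and Fmod (0.30 (adjusted p = 0.0234)) came in addition. With a term for the low-pseudogene libraries none of the 41 genes was called in either comparison; as 9 of the 10 Het fluoxetine libraries are in that set, the term and the group cannot be told apart.

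**Figure D4:**
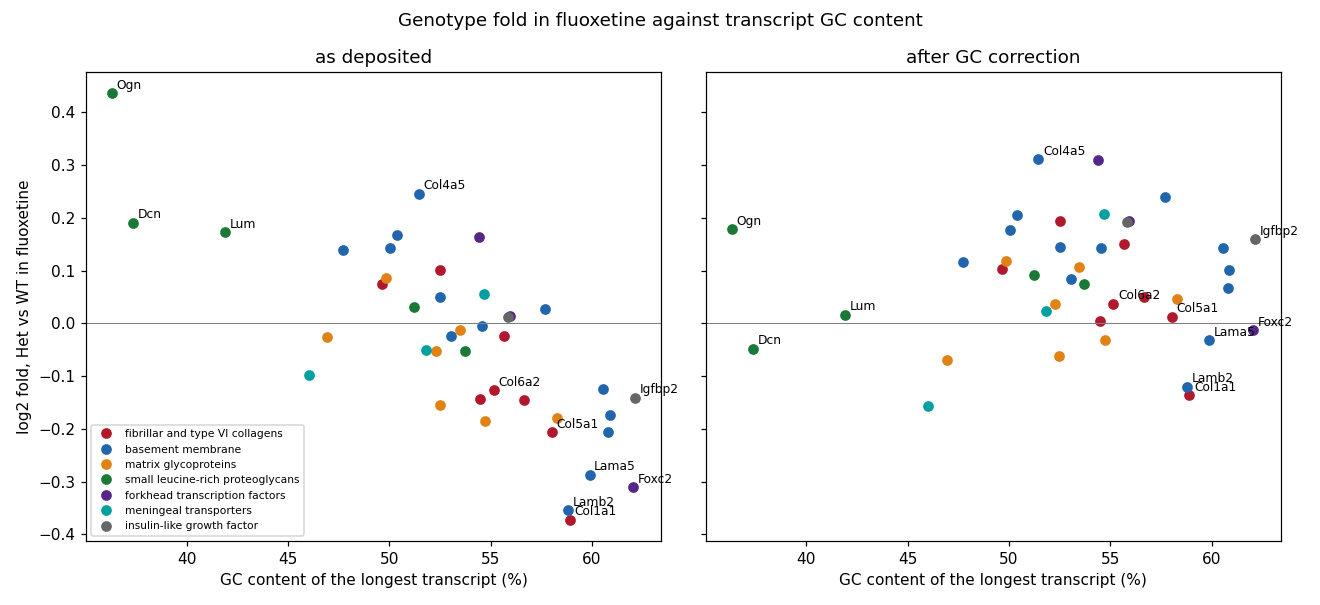
Log2 fold between Het and WT mice under fluoxetine for the 41 genes, against GC content (percent, longest transcript per gene), as deposited (left) and after the GC correction (right). As deposited, Ogn (36.32% GC) is at 0.44 and Lamb2 and Col1a1 (58.8% and 58.89%) are at -0.35 and -0.37; after the correction these are at 0.18, -0.12 and -0.14.

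For 4 of the 41 genes the response to fluoxetine differed between the genotypes, 2 more positive and 2 more negative in Het mice, against 24% of all genes (11.9% positive, 12% negative). The difference, Het minus WT, was 0.76 (SE 0.22, adjusted p = 0.00856) for Ogn and 0.47 (SE 0.12, adjusted p = 0.00477) for Col4a5. It was -0.40 (SE 0.10, adjusted p = 0.00261) for Col5a1 and -0.31 (SE 0.08, adjusted p = 0.00659) for Col6a1. Col5a1 had a median of 883 in Het fluoxetine libraries and 926 in Het vehicle libraries, and of 1002 in WT fluoxetine libraries and 870.5 in WT vehicle libraries, so the collagen V chain was higher with fluoxetine in WT mice and not in Het mice. Col4a5 held its call after the GC correction (0.52 (adjusted p = 0.00544)), and Ogn (0.55 (adjusted p = 0.0673)), Col5a1 (-0.19 (adjusted p = 0.188)) and Col6a1 (-0.13 (adjusted p = 0.296)) did not.

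Male and female libraries did not differ at the threshold in any of the 41 genes, in limma or edgeR, with 0.107% of all genes called in limma and 2 of the 41 at an unadjusted p below 0.05. Lamb1 (-0.10 (SE 0.03, adjusted p = 0.958)), Fbn1 (-0.10 (SE 0.04, adjusted p = 0.999)) and Slc6a20a (-0.08 (SE 0.04, adjusted p = 0.999)) had the smallest p, each lower in males. The response to lithium in WT mice differed between the sexes in 2 of the 41 genes, Dcn and Foxc1, with a more positive response in males for both, where 9.64% of all genes were called (4.83% higher, 4.81% lower). Dcn averaged 432 ± 67.9 in male WT lithium and 418 ± 116 in male WT vehicle libraries, and 267 ± 85.3 in female WT lithium and 450.2 ± 30.2 in female WT vehicle libraries (SD, n = 5 each). Foxc1 averaged 157 ± 23.5 in male WT lithium and 151 ± 2.7 in male WT vehicle libraries, and 129.9 ± 7.8 in female WT lithium and 178 ± 12.7 in female WT vehicle libraries. In both genes the lower level with lithium was in female libraries. The differences, male minus female, were 0.90 (SE 0.24, adjusted p = 0.0239) for Dcn and 0.50 (SE 0.15, adjusted p = 0.0318) for Foxc1. Neither was called after the GC correction or without the 3 libraries with the largest residuals, and none was called without WT lithium female 5, WT lithium male 5 or WT vehicle female 2. In the other 6 comparisons no gene of the whole table had a sex difference.

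Within groups, some of the 41 genes varied with 1 or both of 2 cell markers from library to library. The log2 levels of Slc6a13, the meningeal transporter, and of Cldn5, the endothelial tight junction gene, were added together to the same model, and each gene's slope on each was tested over 17808 genes. A slope is the log2 change of a gene per log2 unit of the marker, with the 12 group means removed, and noise in the marker itself pulls slopes toward 0. Of the other 40 genes 18 had a called positive slope on Slc6a13 and none a negative one, against 1.31% of all genes with a positive one, 0.741% with a negative one and 2.05% with either. On Cldn5, 15 had a positive slope and 1 a negative one, against 12% of all genes with a positive one, 12.5% with a negative one and 24.5% with either. Both slopes were called for 9 genes, Slc6a13's alone for 9, Cldn5's alone for 7 and neither for 15. The slopes are from the same libraries as the comparisons and describe which genes vary together.

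Slopes on Slc6a13 are given for the genes with the smallest p. Fmod, the gene of fibromodulin, had a slope of 0.69 (SE 0.07, adjusted p = 1.62e-09). The slopes were 0.53 (SE 0.06, adjusted p = 1.39e-07) for Fn1, 0.48 (SE 0.06, adjusted p = 1.76e-07) for Slc6a20a, 0.72 (SE 0.09, adjusted p = 2.46e-07) for Slc13a4 and 0.75 (SE 0.10, adjusted p = 1.38e-06) for Aebp1, a protein that binds collagen. Col1a2 (0.64) and Igf2 (0.61) followed with the same adjusted p as Aebp1. By role, 4 of 5 proteoglycans, 4 of 7 glycoproteins, 2 of 2 transporters, 3 of 8 collagens, 4 of 13 basement membrane genes, 1 of Igf2 and Igfbp2, and none of 3 forkhead factors were called. The smallest p on Cldn5 belonged to Col4a2 (0.63 (SE 0.09, adjusted p = 8.26e-07)), Lamb2 (0.67 (SE 0.10, adjusted p = 2.39e-06)), Col4a1 (0.62 (SE 0.10, adjusted p = 8.02e-06)), Igfbp2 (0.60 (SE 0.10, adjusted p = 3.11e-05)) and Hspg2 (0.76 (SE 0.13, adjusted p = 3.52e-05)). Here 9 of 13 basement membrane genes were called, and none of the proteoglycans. Slc6a20a had the negative slope on Cldn5, at -0.20. Igf2 was called on Slc6a13 and Igfbp2 on Cldn5, while Igfbp2 had a slope of 0.25 on Slc6a13 (adjusted p = 0.0620) and Igf2 one of 0.13 on Cldn5 (adjusted p = 0.414), and neither difference between the genes was tested. Of the 13 basement membrane genes, 9 had a positive slope on Cldn5, where 12% of all genes did, and 4 had one on Slc6a13, where 1.31% of all genes did. The difference between the 2 slopes of a gene was not tested.

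**Figure D5:**
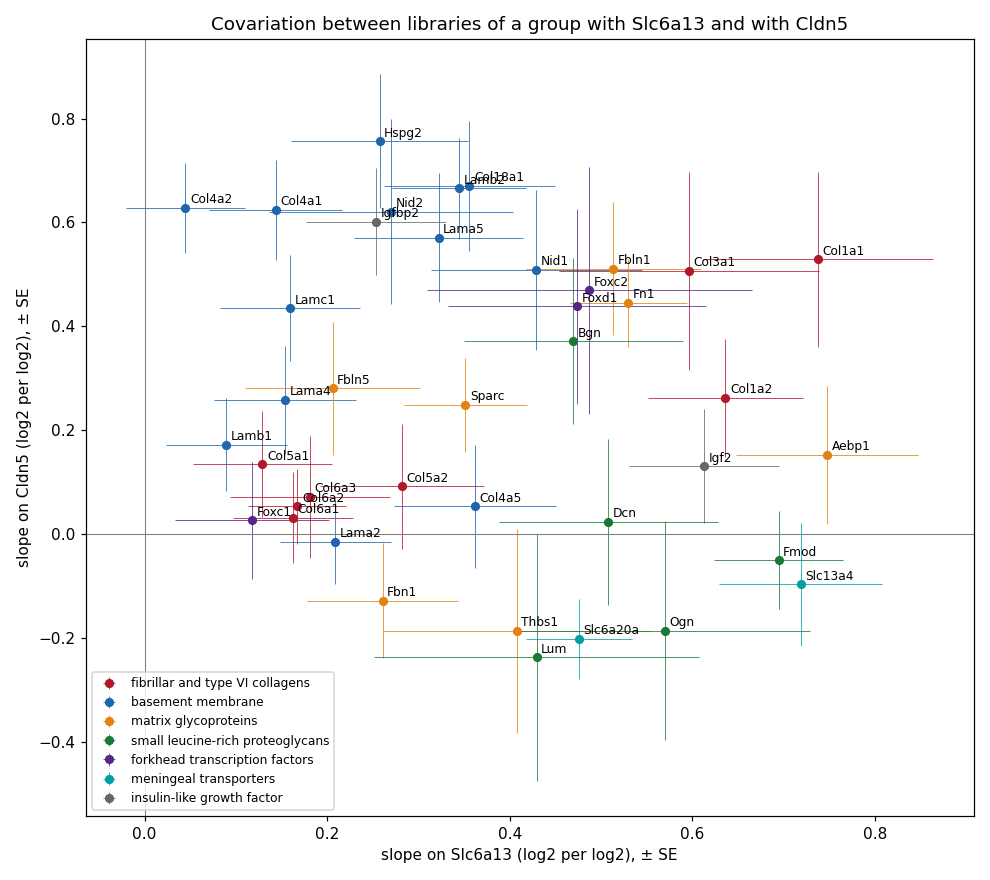
Slope of each of 40 genes on Slc6a13 (horizontal) and on Cldn5 (vertical), in log2 per log2 with lines of ± SE, coloured by role. Basement membrane genes such as Col4a2 and Hspg2 stand high on Cldn5, and Fmod, Slc13a4 and Aebp1 stand far right on Slc6a13.

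Genes outside the 41 with the smallest p for a positive slope on Slc6a13 included other meningeal genes. They were Aldh1a2, the retinoic acid synthase gene, at 0.92, Bmp6 at 1.03, the prostaglandin D synthase gene Ptgds at 0.67, Itih2 at 1.001, Bmp7 at 0.62, the procollagen enhancer gene Pcolce at 0.57, the laminin chain gene Lamc3 at 0.62, the vitronectin gene Vtn at 0.46, Mxra8 at 0.67 and Slc6a12 at 1.13. Slc6a12 is a close relative of Slc6a13, and reads of the pair could be split between them. Of 19 further meningeal markers 12 had a called positive slope on Slc6a13 and none a called slope on Cldn5. Of 15 endothelial markers none was called on Slc6a13 and 12 were positive on Cldn5, and of 6 border macrophage markers 5 were positive on Slc6a13. Slopes on Slc6a13 were also positive for 3 of 14 markers of pericytes and smooth muscle and 1 of 8 of microglia, with none negative, against 1.31% of all genes. Vtn is on the list of pericyte and smooth muscle markers. Positive slopes on Cldn5 were not limited to endothelial markers: they were called for 9 of 14 markers of pericytes and smooth muscle, 5 of 8 of microglia, 5 of 10 of astrocytes and 3 of 6 of blood cells, and for 9 of 27 collagen processing enzymes.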

How the data were processed

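Libraries came from TruSeq stranded mRNA preparation, per the labels. The submitters' processing notes list Salmon 0.11.2, DESeq2 1.19.11, R 3.6.0 and GRCm38, giving neither roles nor order; for strand in counting, the sources used here state nothing. The deposited files hold 1 signal column per library. From the values themselves these are taken to be read counts divided by 1 size factor per library: those of a column are multiples of 1 step, and dividing by it gave whole reads for 100% of values, to within 0.001. Counting error was not modelled apart from the spread between libraries, and folds of log2(value + 1) understate changes of low genes. Symbols and coordinates (GRCm38) were taken from GENCODE M21, which held 18077 of the 18088 identifiers, and sequences from RefSeq.

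The model, fitted with limma 3.58.1 (R 4.3.3, trend and robust), had a mean for each of the 12 groups, which left 48 degrees of freedom. It took log2(value + 1) of 17810 genes, those reaching 10 in 5 or more libraries. Contrasts were averaged over the sexes, adjusted by Benjamini-Hochberg across genes and called at 0.05. Slope fits added Slc6a13 and Cldn5 as covariates. Because the deposited values are normalised, edgeR 4.0.16 on the recovered reads (17776 genes) served as an alternative. Others were scaling by the trimmed mean of M values, a pseudocount of 5, no filter, the replicate number as a block, a GC correction (loess of deviations on GC, span 0.3), leaving out 3 libraries or each library, a term for 10 low-pseudogene libraries, and a fit to the groups compared. The models were tested on simulated reads. The simulation held no GC differences, outlying libraries or litters, so it says nothing about calls that depend on these.

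The members and lists were chosen with earlier results of these data known. Values in all groups are given for 13 genes. In each contrast averaged over sex, and for sex, called members are named, at most 10 with the smallest p, or the 3 with the smallest p where fewer than 3 were called. Interactions name at most 5 called members, slopes the 5 with the smallest p and at most 10 further genes, and further lists at most 2 called genes. Other genes were named after their values were seen.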

Additional observations from a re-analysis of the deposited data

Results flagged for a closer look

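In 78 sets of 10 libraries, 1 for each of 13 genes in each of 6 groups, a library was far from the others in 11, where chance gives about 1 in 20. Some libraries recur. WT vehicle male 1 was lowest in its group for Col3a1 (289.9 normalised counts, next 430.3), Dcn (228, next 389) and Slc6a20a (384, next 543). WT fluoxetine female 5 was highest in its group for Foxc1 (226, next 175), Lama2 (539.5, next 455) and Sparc (11131, next 9101). Het vehicle female 3 was highest for Col4a1 (4371, next 3313) and Sparc (11120, next 8623). The other libraries were high for 1 gene each: Het fluoxetine male 2 for Foxc1 (219.8, next 174), Het lithium female 5 for Col1a1 (962, next 638) and Het lithium male 1 for Lama2 (446, next 426). The values of these libraries were kept in all comparisons.

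The differences between groups below passed a test of the difference itself (limma, Benjamini-Hochberg over all genes). Such calls were common among all genes tested, at 24% for the difference in fluoxetine response. For the sex difference in the response to lithium in WT mice the share was 9.64%. The genes described here passed at lower shares in both tests. The response to fluoxetine in Het minus that in WT mice was 0.76 (SE 0.22, adjusted p = 0.00856) for Ogn, 0.47 (SE 0.12, adjusted p = 0.00477) for Col4a5, -0.40 (SE 0.10, adjusted p = 0.00261) for Col5a1 and -0.31 (SE 0.08, adjusted p = 0.00659) for Col6a1. The response to lithium in WT males minus that in WT females was 0.90 (SE 0.24, adjusted p = 0.0239) for Dcn and 0.50 (SE 0.15, adjusted p = 0.0318) for Foxc1.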

How the results depend on the processing

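Of the counts of called genes, 589 of 620 recomputed values stayed within 1.5 times the reported count, or at 0 where that was 0. Most of the 620 came from fits without 1 library, which change the data little, so this share says little about the other settings. Of the values of named genes 2478 kept direction and call, 151 kept direction and lost the call, 2 gained it and 10 changed sign. Without the 3 libraries with the largest residuals, 1 gene (lower) was called between Het and WT in vehicle and 1 (lower) for lithium in Het mice, 19 for lithium in WT mice, 9 for the difference in fluoxetine response and 0 for the sex differences. A fit to the groups compared alone, with fewer libraries to estimate the spread, called 13 for lithium in WT mice. The GC correction left 2 genes between the genotypes under fluoxetine and 0 sex differences, and with the replicate block 1 and 0. The term for the low-pseudogene libraries left 0 genes between the genotypes under fluoxetine, 0 for fluoxetine in Het mice, 0 for the difference in fluoxetine response and 1 sex difference. That set of libraries was itself defined from the comparison of the genotypes under fluoxetine, so the term is no independent check of it. Signs turned between the genotypes under fluoxetine for Col5a1 (0.0127 with the GC correction, with and without the block), Col6a2 (0.037 likewise, 0.0497 with the term), Col6a1 (0.0492 likewise, 0.0111 with the term) and Lama5 (0.28 with the term), and for fluoxetine in Het mice for Lama5 (0.28 with the term). The cause was not tested.

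Leaving out 1 library at a time gave 5 to 8 called genes between the genotypes under fluoxetine, 6 to 11 for fluoxetine in Het mice, 6 to 8 in WT mice, 22 to 30 for lithium in WT mice, 4 to 6 and 0 to 2 for the differences in fluoxetine and lithium response, 0 to 6 sex differences, 12 to 23 slopes on Slc6a13 and 11 to 17 on Cldn5, and 0 to 0 elsewhere. The count between the genotypes under fluoxetine fell to 5 without Het fluoxetine female 5 or male 5 or WT fluoxetine female 1, and that for fluoxetine in Het mice to 6 without Het vehicle male 1. The sex differences numbered 0 without WT lithium female 5 or male 5 or WT vehicle female 2, 4 without WT lithium male 2 or male 3, 5 without WT lithium female 1 or male 1 or WT vehicle female 5, and 6 without WT lithium female 4. Libraries with the same number had a median correlation of 0.000406 over 330 pairs, against 0.000802 for other numbers. The same-number values ran from -0.337 to 0.375, with 54 pairs over 0.1. The numbers thus gave no sign of pairing across all groups, and pairing between particular groups was not tested. With the replicate block the counts were as reported, 30 for lithium in WT mice among them, save 5 in place of 4 for the difference in fluoxetine response. Low genes such as Foxd1 limit precision.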

Other observations

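Lists of genes that act on or with the matrix were called at shares near that of all genes with fluoxetine in Het mice, where 39% of all genes tested were called (19.1% higher, 19.9% lower). All Het fluoxetine libraries had deviations that correlated negatively with transcript GC content (-0.315 to -0.105). The values of these lists are given without the GC correction, and the part of GC content in them was not tested. Of 27 collagen processing enzymes 4 rose and 9 fell. The lysyl hydroxylase gene Plod3 was at -0.28 (SE 0.05, adjusted p = 7.51e-06) and the prolyl hydroxylase gene P4ha2 at -0.29 (SE 0.05, adjusted p = 1.65e-05). Of 20 matrix proteases and inhibitors 2 rose and 5 fell, with the membrane-bound protease gene Mmp16 at 0.40 (SE 0.05, adjusted p = 1.44e-07) and Mmp15 at -0.34 (SE 0.07, adjusted p = 7.60e-05). Of 16 endothelial markers 8 fell and none rose, with Cldn5 at -0.62 (SE 0.09, adjusted p = 8.56e-07) and the endoglin gene Eng at -0.44 (SE 0.08, adjusted p = 5.94e-05). The endothelial sum was 12326 to 15060 (median 14465) in Het fluoxetine libraries and 14263 to 19817 (median 14973) in Het vehicle libraries.

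Markers of border macrophages, which live in the meninges and around vessels, went the other way. In Het mice given fluoxetine 3 of 6 rose and none fell, with the hyaluronan receptor gene Lyve1 at 0.64 (SE 0.16, adjusted p = 0.00142) and the haemoglobin scavenger receptor gene Cd163 at 0.69 (SE 0.18, adjusted p = 0.0016). Their summed level was 403 to 786.5 (median 606) in Het fluoxetine libraries and 394 to 495 (median 447) in Het vehicle libraries. The same 10 low-pseudogene libraries include 9 of the 10 Het fluoxetine libraries, and their part in these values was not tested. Nor was that of GC content.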
